A study of Mus musculus with 8 samples.

Results

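Nuclear RNA of the cortex was measured by snRNA-seq in 4 Wt and 4 Ifnar1-/- mice, and 45 protein-coding genes of an interval of chromosome 3 around Gon4l are described, of 31053 genes counted. Both genotypes are labelled as C57BL6J, naive and 6 weeks old, with 2 females (F1 and F2) and 2 males (M1 and M2) each, 1 library per mouse. Wt mice carried Ifnar1 (Ifnar1+/+), and Ifnar1-/- mice are labelled as lacking it, with no cell type named. By the methods of the study the Ifnar1-/- line had been backcrossed to C57BL/6J. No source used here says that the groups were littermates, so the loss of Ifnar1 and any other difference between the 2 groups of mice cannot be told apart. The genes were selected on the genotype contrast of these same libraries, as genes of the stretch at about 81 to 96 Mb where changed genes crowd, with Gon4l, the Fcrl genes, Pdgfc and Tpm3 left out. Their differences between genotypes are therefore given as a description, and tests are given for sex and for the interaction of genotype and sex, which did not choose them. On the GRCm38 build the members span chr3:83836272-95134011, or 11.3 Mb from the start of Tlr2 to the end of Scnm1, in which the annotation holds 238 further genes. Of the 45 members 15 start before Gon4l and 30 after it, 22 lie on the plus strand and 23 on the minus strand, and 33 start between 87 and 91 Mb. The widest gap between neighbouring starts, 3.81 Mb, separates Chtop from Them4.

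The members share a place and not a pathway. Ifnar1, on chromosome 16, encodes a chain of the receptor through which type I interferons switch on antiviral and immune genes, and none of the members belongs to that receptor. Among them are genes of neuronal excitability and vesicle release (Kcnn3, Hcn3, Syt11, Snapin), of the matrix around neurons and axons (Bcan, Hapln2), of the nuclear envelope (Lmna), of chromatin and activity-dependent transcription (Ash1l, Mef2d, Crtc2), of RNA processing (Ints3, Scnm1, Chtop) and of the mevalonate pathway (Fdps, Pmvk). Tlr2 is an innate immune receptor of myeloid cells, Nes encodes nestin of neural progenitors, and Selenbp1 and Selenbp2 are close copies that encode selenium-binding proteins.

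The 8 libraries held 44063346 to 58423423 unique molecular identifiers (UMIs, each a captured RNA molecule counted once), and 52006 of 56780 barcodes were kept as nuclei. Before filtering, the barcodes of each library had 70 to 132 matches in the other libraries, summed over those libraries. The nuclei were clustered without the members, and clusters were called by their marker genes. Glutamatergic neurons (Glut) had 26202 nuclei, GABAergic neurons (GABA) 7171, oligodendrocytes (Oligo) 7299 and microglia (Micro) 4386, while 13 clusters with 5333 nuclei stayed unnamed. UMIs were summed per mouse and class, since nuclei of a mouse are not replicates, and are given as CPM, a gene’s UMIs relative to the library total after scaling by trimmed means (TMM). Values per library are given in the order F1, F2, M1 and M2. Ifnar1 itself was detected in every library, at 19.9, 16.8, 17.3 and 18.3 CPM in Wt and 14.5, 14.2, 16.7 and 15.9 in Ifnar1-/-, and counts per gene do not show which exons the UMIs came from. The library Ifnar1-/- F1 had only 156 microglia, fewer than the 438 to 765 of the other 7. Sums over all nuclei mix the classes in the proportions found in each library. The part of class content in the values over all nuclei was not tested. The share of mitochondrially encoded UMIs ran from 0.179% to 0.412% in libraries of females and from 0.435% to 1.12% in those of males.

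The members were first placed by cell class, among the 4 classes with the most nuclei. There 18 of 45 had their highest mean in Oligo, 17 in Micro, 6 in GABA and 4 in Glut. In 7 of the 18 Oligo members every library of Oligo exceeded every library of the class next in order among these 4 (Syt11, Npr1, Hapln2, Thbs3, Efna1, Sh3d19 and Trim2), as it did in 7 of the 17 Micro members (Adam15, Pbxip1, Tlr2, Ash1l, Mef2d, Etv3 and Ubap2l), in Hcn3 and Dclk2 for GABA and in Kcnn3 and Lmna for Glut. For the other 27 members the top classes overlapped between libraries, so that their order is not clear. With astrocytes (6 libraries), oligodendrocyte precursors and striatal projection neurons added, each with few nuclei, 22 members had their highest mean in astrocytes, 7 in oligodendrocyte precursors, 6 each in Oligo and Micro, 2 in GABA and 1 each in Glut and striatal projection neurons. Of all these, Pbxip1 and Ash1l in astrocytes, Tlr2 in Micro and Hapln2 in Oligo exceeded every library of the 6 other classes. The classes share their mice and differ in depth, with medians of 8854 UMIs per nucleus in Glut, 6660 in GABA, 2078 in Oligo and 1472 in Micro.

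Hapln2, which encodes a link protein of the hyaluronan matrix at nodes of Ranvier, was a gene of Oligo, at 209.9 ± 132 CPM (SD, n = 8) in Oligo against 1.57 ± 1.23 in Glut, 1.94 ± 1.53 in GABA and 3.37 ± 4.98 in Micro. Its neuronal levels were 0.748% and 0.923% of the Oligo level in Glut and GABA. Whether the neurons themselves expressed Hapln2 was not tested. Sh3d19, an adaptor with SH3 domains, stood at 649 ± 47.9 CPM in Oligo and 78.9 ± 11.6 in Glut, where its level was 12.2% of that in Oligo, well above the share of Hapln2. Prss48, a gene of the trypsin-like serine protease family, lies inside Sh3d19 on the opposite strand. Both had their highest mean in oligodendrocyte precursors, at 183 ± 199.5 CPM for Prss48 and 879.6 ± 123 for Sh3d19. The levels of Prss48 in Glut, GABA and Micro were 13.6%, 10.5% and 0.962% of that in Oligo, beside 12.2%, 9.8% and 1.67% for Sh3d19. Both genes had the same order over these 4 classes. No source used here states how the counting used strand, so reads of one cannot be fully kept apart from reads of the other. Tlr2 was read almost wholly in Micro, with 112 and 84 UMIs there in Wt and Ifnar1-/-, 7 in Glut, 6 in GABA and 0 in Oligo. Pbxip1, which encodes a binding partner of PBX homeodomain factors, was highest in astrocytes, at 472 ± 67.1 CPM (SD, n = 6), followed by Micro with 97.8 ± 20.4, against 6.37 ± 0.799 in Oligo and 1.07 ± 0.198 in Glut. Kcnn3, a small-conductance calcium-activated potassium channel, stood at 47.5 ± 7.39 CPM in Glut and 12.3 ± 2.1 in GABA, and Hcn3, a hyperpolarization-activated channel, had the opposite order with 15 ± 1.98 in GABA and 7.57 ± 1.01 in Glut. Kcnn3 was higher still in astrocytes, at 281 ± 160.4.

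**Figure D1:**
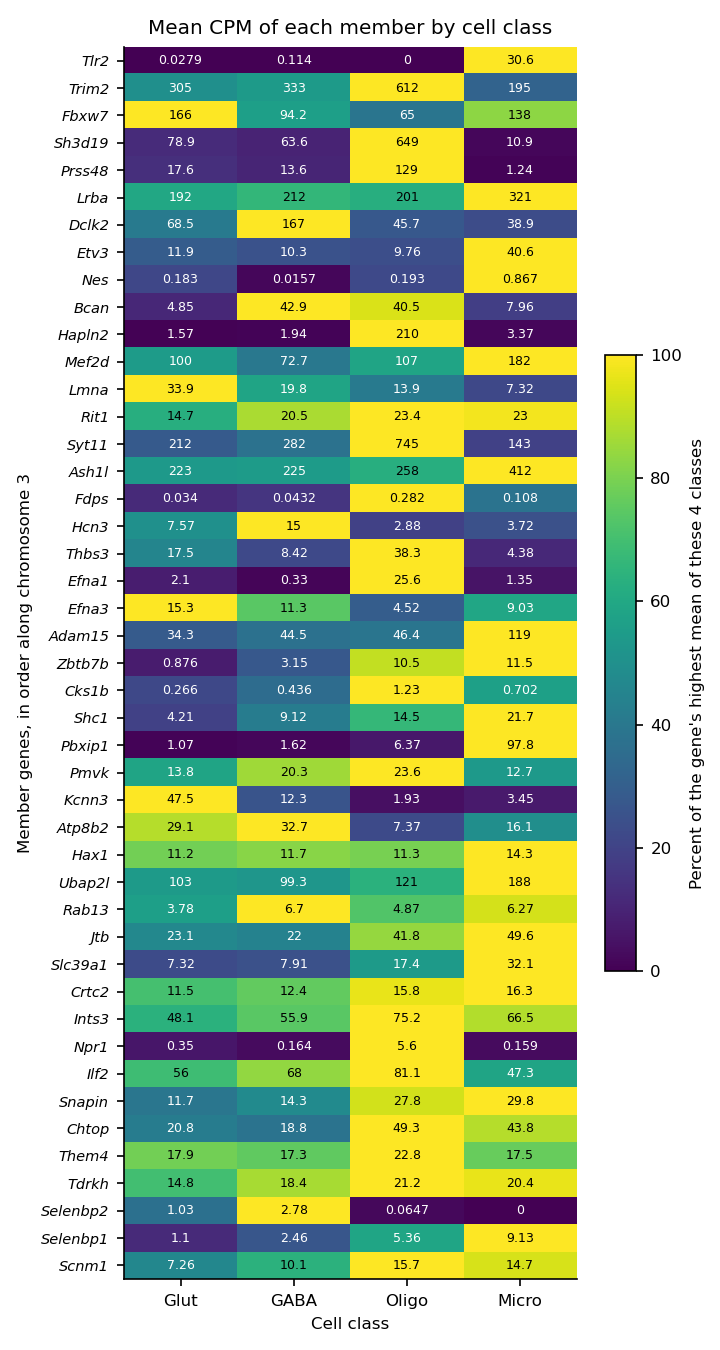
Mean CPM of each member in 4 cell classes, with the number printed in each cell and the colour giving it as a percent of the gene’s highest mean of these 4 classes; rows follow the order along chromosome 3. Hapln2 and Sh3d19 are bright in oligodendrocytes, Tlr2 and Pbxip1 in microglia and Kcnn3 in glutamatergic neurons.

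Genotypes were then compared over all nuclei and in each class. Of 43 members tested over all nuclei 15 had values above 0 and 28 below 0 on the log2 scale (Ifnar1-/- minus Wt). Their median was -0.04, against -0.0001 over all genes. In 33 of the 43 the log2 fold change was under 0.25 in size, and in 3 it was over 0.5. By the quasi-likelihood test of edgeR, with an adjusted p under 0.05, Selenbp2 alone among the members passed over all nuclei, as did 0.0501% of 19966 genes. It was also the only one in Glut (1 of 41 tested, 0.0433% of 18487 genes) and in GABA (1 of 39 tested, 0.027% of 14816 genes). In Oligo 0 of 37 members passed in edgeR (0.0711% of 11255 genes), and DESeq2 called Prss48. In Micro 0 of 28 passed in edgeR (0.105% of 9560 genes), and DESeq2 called Dclk2. With the replicate labels as a block, 1 member passed in Oligo (Prss48) and 1 in Micro (Dclk2). The shares over all genes with the block, and by DESeq2 in Micro, are not given, so nothing is read from these counts. In astrocytes (7 members tested), oligodendrocyte precursors (12) and striatal projection neurons (20) edgeR called 0 members and 0% of 1006, 0% of 2982 and 0% of 8443 genes. At an unadjusted p under 0.05 there were 34, 108 and 210 genes, and DESeq2 called 0, 1 (Prss48) and 0 members, with no share over all genes given. Wt F2 and Ifnar1-/- M1, with under 10 astrocytes each, were left out there. Since the contrast chose the members, nothing is read from how these shares compare. A second description counts genes whose 4 Wt and 4 Ifnar1-/- values do not overlap. It held for 6 of 43 members over all nuclei (1.22% of all genes), 5 of 41 in Glut (1.53%), 6 of 39 in GABA (1.71%), 4 of 37 in Oligo (1.73%) and 1 of 28 in Micro (1.54%). In oligodendrocyte precursors it held for 1 of 12 members (85 of 2982 genes), and in striatal projection neurons for 0 of 20 (168 of 8443 genes). Syt11, Scnm1 and Selenbp2 were the members entirely higher in Ifnar1-/- over all nuclei, and Prss48, Etv3 and Rit1 those entirely lower.

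**Figure D2:**
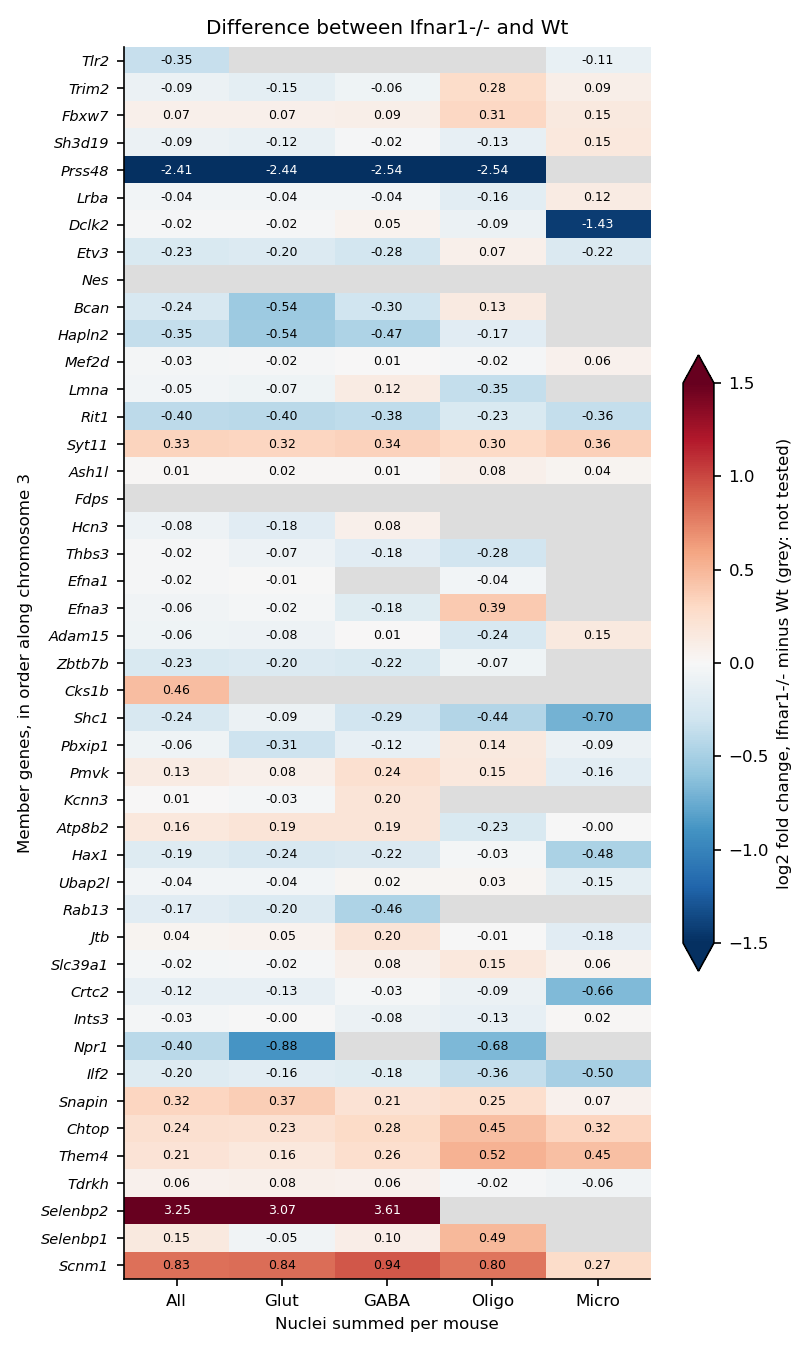
Log2 fold change of each member (Ifnar1-/- minus Wt, printed in each cell; the colour scale ends at 1.5 in either direction) in all nuclei and 4 cell classes, in order along chromosome 3, with grey cells for genes not tested. Selenbp2 and Scnm1 near the lower end are red and Prss48 near the upper end is blue, and most other cells are pale.

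Selenbp2 had the largest log2 fold change of the members tested over all nuclei, in Glut and in GABA. Over all nuclei it was read with 16, 14, 10 and 7 UMIs in Wt and 112, 120, 97 and 89 in Ifnar1-/-, so that the groups did not overlap. The ratio of summed UMIs, scaled by depth, was 9.36 (exact 95% interval 6.91 to 12.9, which covers counting error only). In Glut the counts were 10, 9, 5 and 4 UMIs in Wt and 65, 50, 50 and 52 in Ifnar1-/-, at 0.213 ± 0.0812 CPM in Wt and 1.84 ± 0.5 in Ifnar1-/- (SD, n = 4 each). In GABA they were 4, 3, 3 and 1 UMIs in Wt and 30, 28, 33 and 29 in Ifnar1-/-, at 0.4 ± 0.171 CPM in Wt and 5.15 ± 1.08 in Ifnar1-/- (SD, n = 4 each). The log2 fold change was 3.25 (SE 0.29) over all nuclei, 3.07 (SE 0.32) in Glut and 3.61 (SE 0.34) in GABA. In Oligo 1 UMI was found in Ifnar1-/- and 0 in Wt, and in Micro 0 in both, so no fold is given there. The difference had the same direction in both sexes, with log2 fold changes over all nuclei of 3.16 in females and 3.38 in males. With each library left out in turn it ranged from 2.89 to 3.27 in Glut. The call itself was lost over all nuclei without Wt M1, in GABA without Wt M1 or Ifnar1-/- F2, and in Glut whenever a library other than Ifnar1-/- M1 was left out, and 0 members then passed.

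Selenbp1, known as a methanethiol oxidase, begins downstream of Selenbp2 and did not share its difference. It was read with 92, 86, 83 and 83 UMIs in Wt and 78, 88, 95 and 99 in Ifnar1-/- over all nuclei, where the groups overlapped, and its log2 fold change was 0.15 (SE 0.15). It was -0.05 (SE 0.21) in Glut, 0.10 (SE 0.39) in GABA and 0.49 (SE 0.36) in Oligo. The longest coding transcripts of the pair are identical in 98.1% of 1719 aligned columns and their last 400 bases in 94.6%, so the assignment of 3’ reads between the pair is uncertain. Summed over the pair, the UMIs over all nuclei were 108, 100, 93 and 90 in Wt and 190, 208, 192 and 188 in Ifnar1-/-, which did not overlap, although the values of Selenbp1 alone did. Selenbp2 made up 7.78% to 14.8% of the pair’s UMIs in Wt and 47.3% to 58.9% in Ifnar1-/-. Selenbp1 had its highest mean in astrocytes (59.1 ± 41.3 CPM, SD, n = 6), where no UMI of Selenbp2 was found, and Selenbp2 had its highest in GABA (2.78 ± 2.64 CPM), neither clear of the other classes. The promoters of the pair are shown because the genotype difference in assigned UMIs was not shared by these near copies. RefSeq’s windows run from 250 bases before to 50 after each start, lie at chr3:94932833-94933132 and chr3:94693323-94693622 (GRCm38.p6, both on the plus strand), and are identical in 273 of 312 aligned columns (87.5%). Capitals mark bases that differ from the other promoter or face a gap, 27 in each.
Selenbp1: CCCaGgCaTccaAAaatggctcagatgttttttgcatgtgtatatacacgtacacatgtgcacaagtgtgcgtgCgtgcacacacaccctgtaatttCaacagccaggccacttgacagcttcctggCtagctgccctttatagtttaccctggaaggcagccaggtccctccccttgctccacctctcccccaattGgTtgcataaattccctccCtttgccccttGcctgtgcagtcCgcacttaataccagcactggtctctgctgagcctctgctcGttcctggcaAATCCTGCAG
Selenbp2: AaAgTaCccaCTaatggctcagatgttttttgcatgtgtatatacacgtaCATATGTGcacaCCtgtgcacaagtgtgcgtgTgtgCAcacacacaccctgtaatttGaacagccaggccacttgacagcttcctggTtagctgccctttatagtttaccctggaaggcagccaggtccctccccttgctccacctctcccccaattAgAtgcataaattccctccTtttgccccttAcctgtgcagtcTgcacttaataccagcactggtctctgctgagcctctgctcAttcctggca
In Selenbp1 the capitals gather at the first and the last bases, and in Selenbp2 at the first bases and in a run well before the start. The last capitals of Selenbp1 lie past the end of the Selenbp2 window, so they show no difference in base. The aligned windows held 15 mismatches and 24 gap columns. Type I interferons act on target promoters through the interferon-stimulated response element, whose core was searched as GAAANNGAAA on both strands. Neither promoter of the pair held it, and 2 of the 54 promoters found for 38 members did (Trim2 and Hax1), or 3.7%, against 3.44% of all 32851 promoters of that length. Prss48 and Scnm1 had no entry in the table of promoters.

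Scnm1, a gene of pre-mRNA splicing, was the member at the distal end of the interval and was higher in Ifnar1-/- in every neuronal and Oligo library than in any Wt library of the same class. Over all nuclei it was read with 278, 258, 331 and 291 UMIs in Wt and 390, 466, 647 and 464 in Ifnar1-/-, at 6.06 ± 0.525 CPM in Wt and 10.8 ± 0.867 in Ifnar1-/- (SD, n = 4 each). This is a log2 fold change of 0.83 (SE 0.12). In GABA the values were 6.34, 6.33, 8.3 and 6.68 CPM in Wt and 12.2, 13.3, 15.4 and 12 in Ifnar1-/-, with a log2 fold change of 0.94 (SE 0.16). In Oligo they were 9.58, 15.8, 8.71 and 11.8 CPM in Wt and 17.6, 27.7, 17.8 and 16.6 in Ifnar1-/-, where Ifnar1-/- F2 was the highest, and the log2 fold change was 0.80 (SE 0.26). In Micro the groups overlapped and the log2 fold change was 0.27 (SE 0.37), on 47 UMIs in Wt and 48 in Ifnar1-/-. Within sexes the log2 fold change over all nuclei was 0.89 in females and 0.77 in males. With sex as a covariate Scnm1 passed an adjusted p of 0.05 over all nuclei and in Glut, a description, since the contrast chose the members.

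Prss48 had the lowest log2 fold change of the members tested over all nuclei and in Glut, GABA and Oligo. In Oligo it was read with 336, 267, 799 and 576 UMIs in Wt and 148, 42, 18 and 112 in Ifnar1-/-, at 221 ± 64.8 CPM in Wt and 37.5 ± 27.9 in Ifnar1-/- (SD, n = 4 each). No Ifnar1-/- library reached the lowest Wt library. The log2 fold change was -2.54 (SE 0.44), with -2.44 (SE 0.48) in Glut, -2.54 (SE 0.48) in GABA and -2.59 (SE 0.49) in oligodendrocyte precursors. Over all nuclei the counts were 1275, 1244, 2962 and 1729 UMIs in Wt and 529, 253, 117 and 291 in Ifnar1-/-, with Wt M1 the highest and Ifnar1-/- M1 the lowest. The log2 fold change over all nuclei was -1.44 in females and -3.51 in males. Sh3d19, in which Prss48 lies, differed little, with -0.09 (SE 0.14) over all nuclei and -0.13 (SE 0.11) in Oligo. In oligodendrocyte precursors the log2 fold change of Sh3d19 was -0.33 (SE 0.16). Its groups did not overlap there, as in 85 of the 2982 genes tested in that class. The spread of Prss48 within each genotype was wide, and Prss48 passed in none of the 8 edgeR fits by genotype alone. In Oligo Prss48 passed in edgeR with the replicate block, with sex as a covariate, without the filter on low counts and in males only. The contrast chose the members, so these calls are a description and no support. The fit of males only has 2 mice per genotype and was chosen after seeing the data.

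Syt11 and Rit1, neighbours just before Gon4l, had smaller differences that recurred across classes; both, like Etv3, Sh3d19, Nes and Trim2, and like the genes named for their class or role, are described because of values seen in the data. Syt11, a synaptotagmin of vesicle and membrane traffic, had 216, 231, 200.1 and 241 CPM in Wt and 275, 281, 279.8 and 284 in Ifnar1-/- over all nuclei, and the 4 Ifnar1-/- libraries lay within a narrow range above all Wt libraries. Its log2 fold change was 0.33 (SE 0.07) over all nuclei, 0.32 in Glut, 0.34 in GABA, 0.30 in Oligo and 0.36 in Micro, where the groups overlapped. Rit1, a Ras-like GTPase of growth factor signalling, had 17.3, 18.9, 19.9 and 19.3 CPM in Wt and 12.9, 14.4, 15.6 and 14.3 in Ifnar1-/-, with all Ifnar1-/- libraries below all Wt libraries. Its log2 fold change was -0.40 (SE 0.10) over all nuclei, -0.40 in Glut, -0.38 in GABA, -0.23 in Oligo and -0.36 in Micro, and groups overlapped in both glial classes. Etv3, an ETS-family repressor, did not overlap over all nuclei (12.8 ± 0.583 CPM in Wt and 10.9 ± 1.44 in Ifnar1-/-; SD, n = 4 each) but did in each of the 4 classes. Of the 27 members tested in all 4 classes 7 were higher in Ifnar1-/- in each (Ash1l, Chtop, Fbxw7, Scnm1, Snapin, Syt11 and Them4) and 5 lower in each (Crtc2, Hax1, Ilf2, Rit1 and Shc1). The classes come from the same mice, so this is no independent support. The share of all genes with 1 sign in the 4 classes is not given, so nothing is read from these counts. Ash1l lay within 1 SE of 0 in each class, with values from 0.01 in GABA to 0.08 in Oligo.

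**Figure D3:**
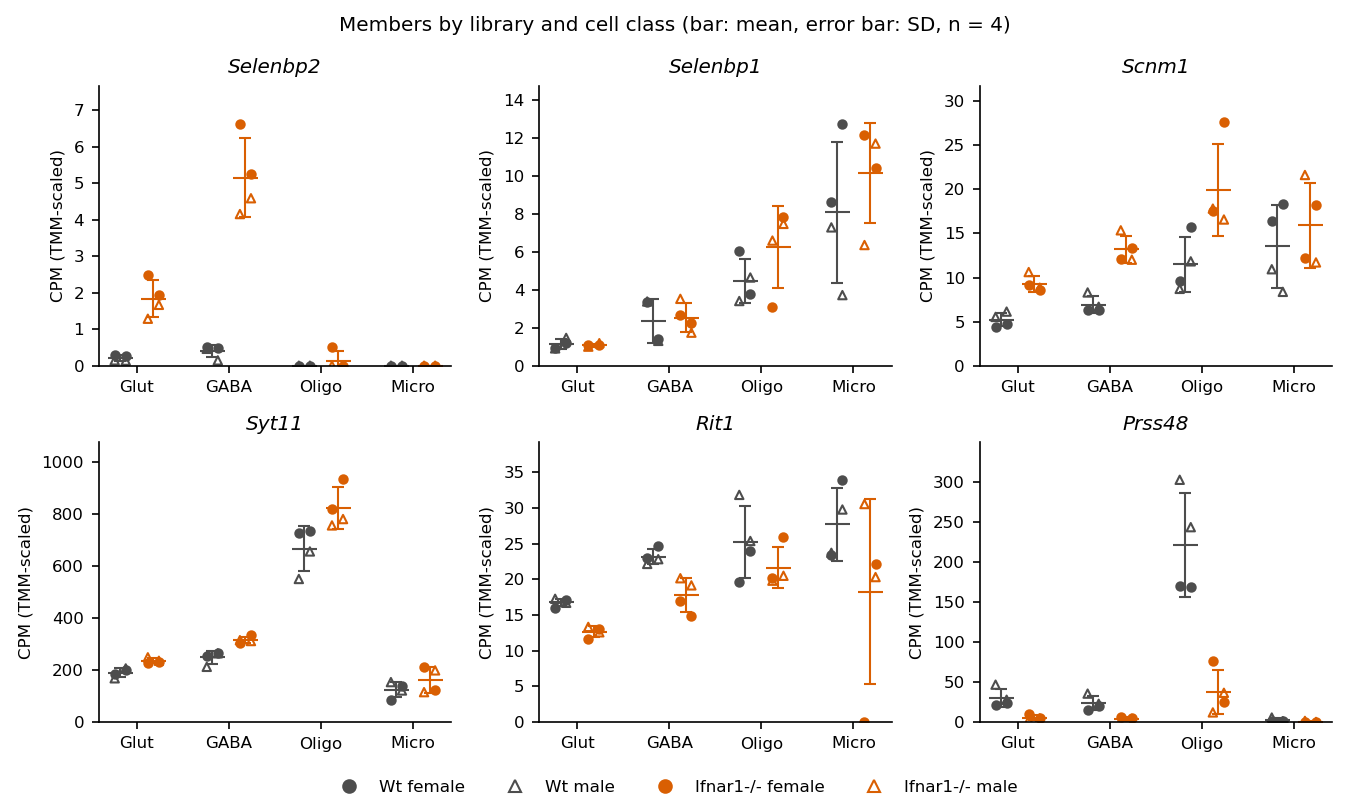
TMM-scaled CPM of 6 members in each library of 4 cell classes, Wt in grey and Ifnar1-/- in orange, females as filled circles and males as open triangles, with the mean and SD of 4 libraries. Selenbp2 separates the genotypes in Glut and GABA and is near 0 in Oligo and Micro, Selenbp1 overlaps throughout, and Prss48 is highest in Wt Oligo.

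In Micro the members with the largest differences were Dclk2, Shc1, Crtc2, Ilf2 and Hax1, all lower in Ifnar1-/- and none past the threshold in edgeR. Dclk2, a doublecortin-like kinase that binds microtubules, was read with 63, 37, 37 and 58 UMIs in Wt and 3, 23, 14 and 22 in Ifnar1-/-, at 57 ± 7 CPM in Wt and 20.8 ± 6.11 in Ifnar1-/- (SD, n = 4 each). It was the 1 member whose groups did not overlap in Micro. Its log2 fold change there was -1.43 (SE 0.25), and -0.98 in females and -1.76 in males. The same gene, read more in the neurons than in Micro, had 0.05 (SE 0.09) in GABA and -0.02 (SE 0.09) in Glut, and in oligodendrocyte precursors 0.39 (SE 0.32). The part of neuronal RNA in the Micro values was not tested. The summed glutamatergic markers of Micro were 186 to 384 CPM in Wt and 122 to 410.3 in Ifnar1-/-, which overlapped. Shc1, an adaptor of receptor tyrosine kinases, had 36.3, 26.9, 20.1 and 22.3 CPM in Wt and 18.3, 22.1, 17.8 and 10.2 in Ifnar1-/- (log2 fold change -0.70, SE 0.33). Crtc2, a coactivator of CREB, had 28.5, 18.4, 20.1 and 16.7 CPM in Wt and 6.09, 5.21, 17.8 and 18 in Ifnar1-/- (log2 fold change -0.66, SE 0.40), where both Ifnar1-/- females were below all Wt libraries and both males overlapped them. Ilf2, an RNA-binding partner of NF90, had 61, 40, 22 and 75 UMIs in Wt and 7, 28, 36 and 44 in Ifnar1-/- and overlapping groups (log2 fold change -0.50, SE 0.23), whereas in Oligo its groups did not overlap (-0.36). Hax1, a mitochondrial protein of cell survival, had 16, 15, 10 and 15 UMIs in Wt and 2, 7, 9 and 18 in Ifnar1-/- (log2 fold change -0.48, SE 0.32), with overlapping values. Ifnar1-/- F1 held 3, 3, 1, 7 and 2 UMIs of these 5 genes in its 156 microglia, and without that library their log2 fold changes were -1.38, -0.70, -0.56, -0.49 and -0.45.

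The remaining differences of the neuronal and Oligo classes concerned weakly read genes and the matrix genes. Npr1, the guanylate cyclase receptor of atrial natriuretic peptide, had 8, 13, 20 and 17 UMIs in Wt and 3, 12, 5 and 9 in Ifnar1-/- in Glut (log2 fold change -0.88, SE 0.48), where the groups overlapped, and -0.40 (SE 0.29) over all nuclei. In Oligo it had 19, 10, 18 and 12 UMIs in Wt and 3, 5, 10 and 18 in Ifnar1-/-, and its log2 fold change was -1.81 in females and 0.04 in males. Bcan, which encodes brevican of perineuronal nets, had 46.8, 45.3, 48.3 and 49.1 CPM in Wt and 37.6, 39.5, 41.7 and 35 in Ifnar1-/- in GABA. There the groups did not overlap and the log2 fold change was -0.30 (SE 0.09). In Glut it had 6.21, 3.91, 5.79 and 7.11 CPM in Wt and 4.11, 2.62, 4.27 and 4.77 in Ifnar1-/-. The groups overlapped, with a log2 fold change of -0.54 (SE 0.24), and in Oligo the value was 0.13 (SE 0.36). Hapln2 had 7, 2, 28 and 25 UMIs in Wt and 4, 3, 15 and 19 in Ifnar1-/- in GABA (log2 fold change -0.47, SE 0.73), where the value turned to 0.02 without Wt M1, and in both genotypes the males held most of the UMIs. Rab13, a small GTPase of vesicle transport, had 39, 53, 51 and 69 UMIs in Wt and 16, 25, 64 and 38 in Ifnar1-/- in GABA (log2 fold change -0.46, SE 0.29), with overlapping groups. Them4, an acyl-CoA thioesterase, had 21.7, 26.5, 12.5 and 14.8 CPM in Wt and 29, 33.1, 23.1 and 21.8 in Ifnar1-/- in Oligo (log2 fold change 0.52, SE 0.26). Cks1b, a subunit of cyclin-dependent kinases, had 5, 13, 15 and 19 UMIs in Wt and 14, 13, 20 and 22 in Ifnar1-/- over all nuclei (log2 fold change 0.46, SE 0.39). Both overlapped. Nes was below the filter on low counts in each fit, with 17, 16, 10 and 10 UMIs in Wt and 1, 0, 6 and 5 in Ifnar1-/-. In Glut it had 15, 12, 8 and 9 UMIs in Wt and 0, 0, 2 and 2 in Ifnar1-/-, and the depth-scaled ratio of Wt to Ifnar1-/- UMIs was 10.4 (exact 95% interval 3.79 to 39.9, counting error only), with each Wt library above each Ifnar1-/- library. Nes was named after these values were seen, so they are a description and no test. How many genes of like counts separate in this way is not given. Fdps, the other member tested in no fit, was read over all nuclei with 10 UMIs in Wt against 8 in Ifnar1-/-.

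The members are given by role as counts over all nuclei, and no group was tested. Of the 9 genes of ion channels, vesicles and neuronal signalling 3 were higher and 6 lower in Ifnar1-/- over all nuclei (from -0.40 to 0.33 on the log2 scale), and Kcnn3, Hcn3, Dclk2 and Lrba lay between -0.08 and 0.01. All 6 genes of matrix, adhesion and guidance had values below 0 over all nuclei (from -0.35 to -0.02), among them Thbs3, a thrombospondin (-0.02), Adam15, a metalloprotease (-0.06), and the ephrins Efna1 (-0.02) and Efna3 (-0.06), each within 1 SE of 0. The 4 tested genes of cytoskeleton and nuclear envelope had values from -0.17 to -0.05, with Lmna, which encodes lamins A and C, at -0.05. Of the 5 genes of transcription and chromatin 1 was higher and 4 lower (from -0.23 to 0.01). Ash1l, a histone methyltransferase, stood at 228 ± 9.22 CPM in Wt and 231 ± 14 in Ifnar1-/- (SD, n = 4 each) and Mef2d, an activity-dependent factor, at 97.8 ± 8.98 CPM in Wt and 96.1 ± 12.5 in Ifnar1-/- (SD, n = 4 each). The 6 genes of RNA processing split evenly and ran from -0.20 to 0.83, with Chtop, of mRNA export, at 0.24 and Ints3, of the Integrator complex, at -0.03. Of 6 tested genes of metabolism and transport 5 were higher and 1 lower, with Pmvk, phosphomevalonate kinase, at 0.13, Atp8b2, a phospholipid flippase, at 0.16 and Slc39a1, a zinc transporter, at -0.02. The ubiquitin ligase genes Fbxw7 and Trim2 stood at 0.07 and -0.09, and Tlr2 in Micro at -0.11 (SE 0.36). Counting the 30 members outside the rule for named genes, values ran from -0.40 (Rit1) to 0.33 (Syt11) over all nuclei, -0.40 (Rit1) to 0.37 (Snapin) in Glut, -0.38 (Rit1) to 0.34 (Syt11) in GABA, -0.35 (Lmna) to 0.45 (Chtop) in Oligo and -0.36 (Rit1) to 0.36 (Syt11) in Micro.

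Along the chromosome the differences of the members were uneven, with large and small values side by side. Over all nuclei the interval held 4 of the 10 genes called (4 of 168 tested), the rest of chromosome 3 held 0 of 847, the 10 Mb on either side of Ifnar1 on chromosome 16 0 of 119, and all other chromosomes 6 of 18809. This crowding is what placed the interval, so it is a description. The median size of the log2 fold change was 0.127 for members and 0.183 for the 125 other genes tested in the interval, against 0.0977 in the rest of chromosome 3, 0.122 around Ifnar1 and 0.0987 elsewhere. In Oligo these medians were 0.174, 0.173, 0.138, 0.159 and 0.129. In Micro they were 0.152, 0.183, 0.127, 0.206 and 0.146. Calls in Oligo were 2 of 106 in the interval and 2 of 456 in the rest of chromosome 3. Around Ifnar1 1 of 69 was called in Oligo, and elsewhere 3 of 10615. In Micro the calls were 2 of 89, 0 of 363, 1 of 53 and 7 of 9045 in the same order. The called genes of the interval other than Selenbp2 were Gon4l (1.03 over all nuclei), Gm43713, an antisense gene inside it (1.69), and the Fc receptor-like genes Fcrl1 (4.92 in Micro) and Fcrls (1.68 in Micro). Rit1 and Syt11 are the last members before Gon4l, at -0.40 and 0.33, while Ash1l, the next member after Gon4l, was at 0.01. Tpm3, left out by the rule, lies among the members and was at 0.39, and Pdgfc and Gm16000, before the first member, were at -1.27 and -2.15 in Oligo and at 0.11 and 0.02 over all nuclei. At the borders, Tlr2, the first member, was at -0.35 (SE 0.46) over all nuclei. Sfrp2 and Gm26771 just before it were at 0.11 (SE 0.42) and 0.29 (SE 0.24). In Micro, where nearly all its UMIs lay, Tlr2 was at -0.11 (SE 0.36). Scnm1, the last, was at 0.83 and Lysmd1 and Tnfaip8l2 just after it at 0.31 and -0.94. In GABA the gene after Lysmd1, Sema6c, was at -0.09, and in Oligo the first gene tested past Scnm1, Gabpb2, was at -0.01.

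**Figure D4:**
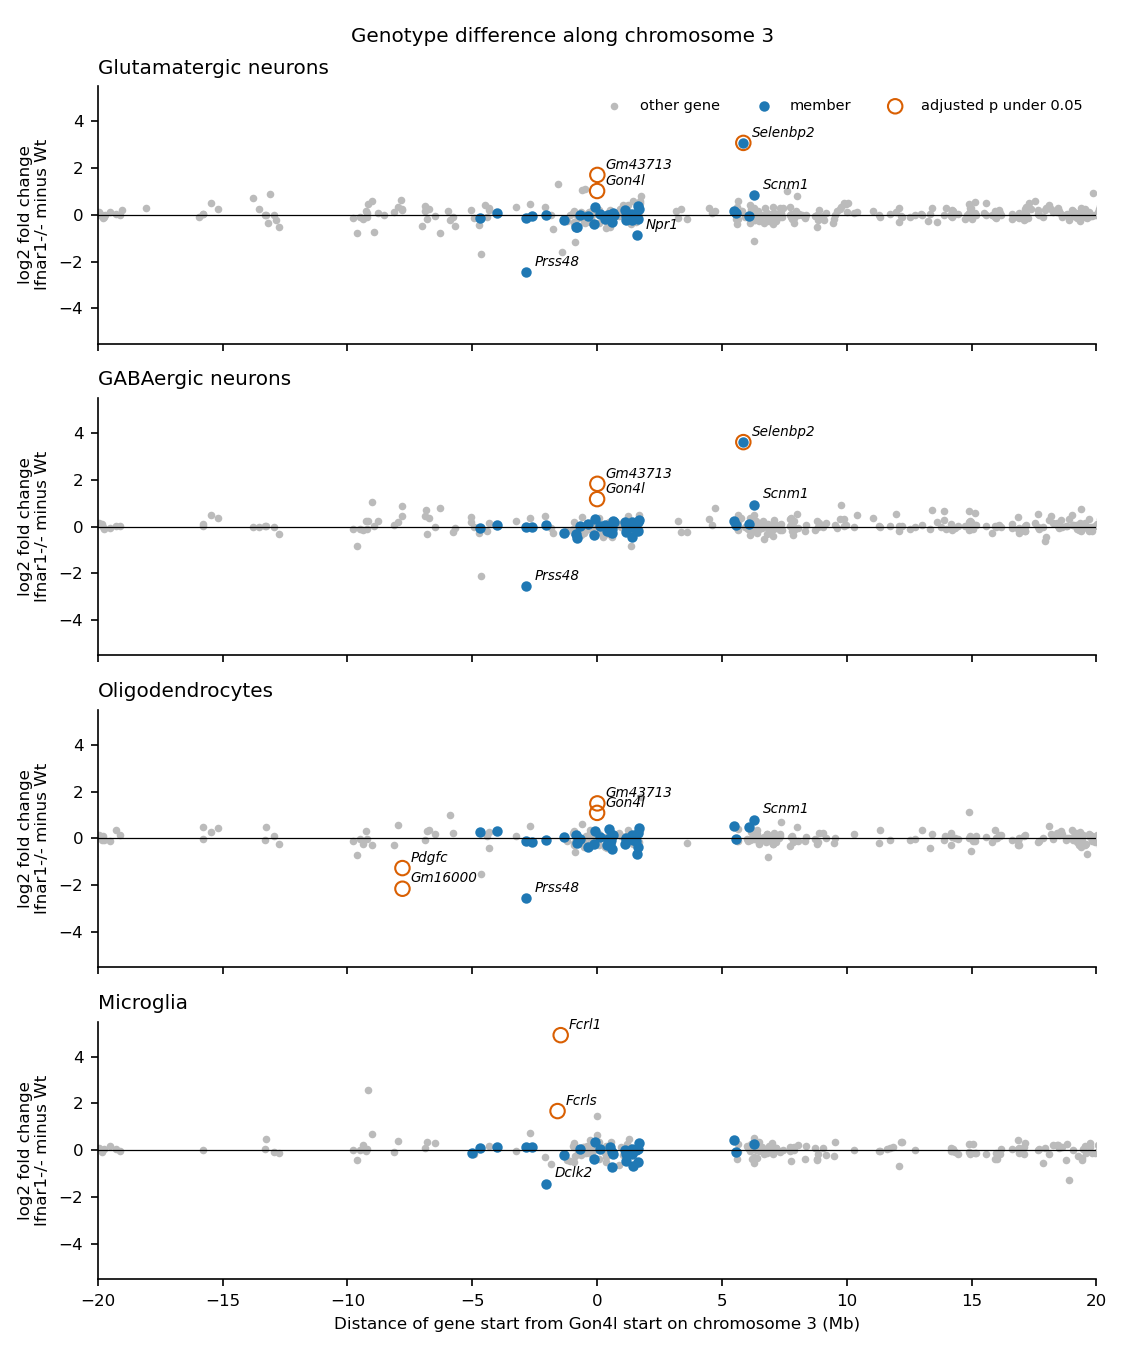
Log2 fold change (Ifnar1-/- minus Wt) of each gene tested within 20 Mb of Gon4l against the distance of its start from that of Gon4l in Mb, in 4 cell classes; members are blue, other genes grey, and rings mark genes past an adjusted p of 0.05. Most members lie near 0 beside Gon4l, with Selenbp2, Scnm1 and Prss48 apart from them in neurons.

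Sex did not choose the members and was tested with genotype in the model. Libraries of females and males also differed in mitochondrial and ribosomal shares, so sex and whatever else set these libraries apart cannot be told apart. Over all nuclei 7 of 43 members passed an adjusted p of 0.05, beside 27.2% of all genes. The counts were 6 of 41 in Glut (background 30.4%), 4 of 39 in GABA (24.5%), 5 of 37 in Oligo (21.5%) and 1 of 28 in Micro (19.7%), so in each fit the members’ share was below that of all genes. Hapln2 had the largest difference. It ranged from 65 to 147 CPM in females and from 255 to 374 in males in Oligo, with no overlap. The means were 93.7 ± 37.1 CPM in females and 326 ± 58.3 in males (SD, n = 4 each), a log2 difference of 1.80 (SE 0.21, edgeR adjusted p = 0.000108). The same direction held in Glut, 2.27 (adjusted p = 0.00069), and GABA, 2.24 (adjusted p = 0.0021), both in the same edgeR test, at 0.57% of the Oligo level in females and 0.799% in males for Glut. Efna3, a ligand of Eph receptors in axon guidance, ranged from 10.3 to 11.7 CPM in females and from 15.3 to 20.2 in males over all nuclei. The means were 10.9 ± 0.676 CPM in females and 17.7 ± 2.82 in males (SD, n = 4 each), a log2 difference of 0.71 (SE 0.13, edgeR adjusted p = 0.00458). Atp8b2 ranged from 17.2 to 26.2 CPM in females and from 31.1 to 38.4 in males. The means were 21.9 ± 3.74 CPM in females and 34.4 ± 3.46 in males (SD, n = 4 each), a log2 difference of 0.65 (SE 0.13, edgeR adjusted p = 0.00716). Them4 was lower in males, ranging from 17.7 to 26.4 CPM in females and from 13.1 to 16.1 in males. The means were 22.3 ± 3.57 CPM in females and 14.9 ± 1.31 in males (SD, n = 4 each), a log2 difference of -0.58 (SE 0.11, edgeR adjusted p = 0.00713). These 4 genes passed over all nuclei and in Glut under each left-out library, and none of their values overlapped between the sexes there.

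Sh3d19 was higher in males over all nuclei, at 114 ± 12.5 CPM against 90.4 ± 2.13 in females (SD, n = 4 each; adjusted p = 0.017, edgeR), and in Glut by 0.34 on the log2 scale (adjusted p = 0.0109, edgeR). The first call was lost without Wt F2 or Wt M2, with an edgeR adjusted p of at most 0.0626. Pmvk had 13.8 ± 1.27 CPM in females and 17.6 ± 2.14 in males (SD, n = 4 each), a log2 difference of 0.34 (SE 0.11, edgeR adjusted p = 0.0483) over all nuclei and kept its call in 2 of 8 runs with a library left out, those without Wt M1 or Ifnar1-/- M2. Selenbp2 was lower in males, where it decreased by 0.67 on the log2 scale over all nuclei (adjusted p = 0.0192, edgeR), a call lost without Wt M2, Ifnar1-/- F1 or Ifnar1-/- M1, with an edgeR adjusted p of at most 0.0665. Its sexes overlapped when both genotypes were pooled. In Oligo, Chtop was lower in males (-0.53, adjusted p = 0.0163), as were Lrba, of vesicle traffic (-0.33, adjusted p = 0.0263), and Them4 (-0.63, adjusted p = 0.0208), and Dclk2 was higher (0.41, adjusted p = 0.0435), all by edgeR’s test. Chtop lost its call without Wt F1 or Wt M1, Them4 without Wt F2, Wt M1, Wt M2 or Ifnar1-/- F2, Lrba in 5 and Dclk2 in 7 of 8 runs with a library left out. In GABA, Efna3 (0.87, adjusted p = 0.00862) and Hapln2 held in all 8 such edgeR runs, Them4 (-0.64, adjusted p = 0.0153) lost its call without Wt F2, Wt M2 or Ifnar1-/- F1, and Atp8b2 (0.61, adjusted p = 0.0356) in 6 of 8. In Micro, Pbxip1 was lower in males (-0.46, adjusted p = 0.0494, edgeR), with no overlap, and passed in 1 of 8 such runs, without Wt F2.

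**Figure D5:**
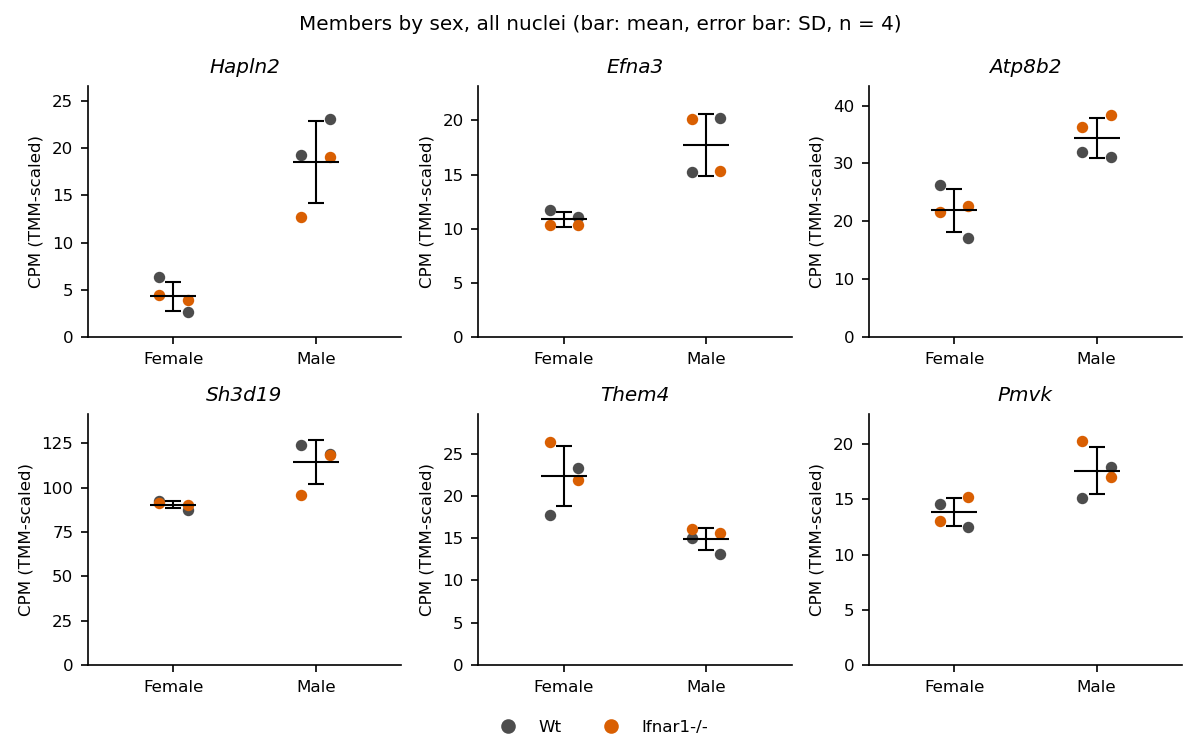
TMM-scaled CPM of 6 members over all nuclei in each library of females and males, Wt in grey and Ifnar1-/- in orange, with the mean and SD of 4 libraries. Hapln2, Efna3, Atp8b2 and Sh3d19 are higher in all males than in all females, Them4 is lower in all males, and Pmvk overlaps.

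The interaction asked whether the genotype difference itself differed between females and males. In edgeR 0 members and 0% of 19966 genes passed an adjusted p of 0.05 over all nuclei, as in Glut (0%), GABA (0%), Oligo (0%) and Micro (0%), and DESeq2 called 0 in each. At an unadjusted p under 0.05 there were 2, 2, 1, 3 and 3 members and 492, 316, 233, 322 and 220 genes. Prss48 had the smallest unadjusted p among the members in Glut and GABA. In Glut its genotype difference was -1.52 in females and -3.55 in males, an interaction of -2.04 (SE 0.59, unadjusted p = 0.0071, adjusted p = 1 in edgeR), and in Oligo -1.67 (SE 0.59). Others under 0.05 unadjusted were Mef2d over all nuclei (0.41) and in Glut (0.42), Npr1 (1.86) and Bcan (-1.16) in Oligo, and Crtc2 (2.13), Tlr2 (-1.45) and Chtop (0.88) in Micro. With 2 mice per sex and genotype, a p that misses the threshold does not show that the genotype difference was alike in the sexes.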

How the data were processed

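The deposited files hold UMI counts per gene and barcode, 1 matrix per mouse. Per the labels and the study's methods, the authors made them from single nuclei of snap-frozen cortex with a 3' kit and Cell Ranger (3.1.0 in the file headers) on mm10, and counted unspliced reads. The submitters' processing notes also name Seurat 3.1.5. How the counting used strand is not given in the sources used here.

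The authors' filters were applied (over 200 and under 6000 genes, over 1000 UMIs and under 10% mitochondrial UMIs), which left 54341 barcodes, and 2335 called as doublets were removed. Nuclei were clustered with scanpy 1.11.5 and leidenalg 0.10.2 (Python 3.11.15), without the members and without Gon4l, and clusters were named from fixed markers. Counts were summed per mouse and class. The main test was edgeR 4.0.16 (R 4.3.3), the quasi-likelihood test with TMM, filterByExpr and Benjamini-Hochberg adjustment over all genes tested. Genotype was fitted alone, sex with genotype, and the interaction with both. SE are those of the fitted coefficient. DESeq2 1.42.0 was an alternative, as were RLE factors, no filter on low counts, sex as a covariate, a replicate block, doublets kept, and leaving out each library. Fits of females only and of males only were chosen after seeing the data. The fitting steps were tested on simulated data. Libraries are 1 mouse each, as far as the labels show.

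Same-labelled mice of the 2 genotypes (F1, F2, M1, M2) deviated together in each fit, with correlations over all genes from 0.171 to 0.644 in the 5 main fits. The labels were therefore treated as pairing the libraries in the block fits. Over autosomal genes only, same-labelled mice gave 0.146 to 0.632 and mice of the same sex with the other label gave 0.125 to 0.747. These values for the other label were higher than the all-gene values for the same label in 10 of 20 cases. The correlations thus do not set the label apart from sex. The labels also carry sex, and no source says that they mark a litter or day.

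Members and lists were chosen with earlier results of these data known. Named with values in every library were members past an adjusted p of 0.05 by genotype and, in each of 5 fits, the 5 with the largest log2 fold change in size; members past 0.05 by sex were named too. Other members were named after their values were seen.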

Additional observations from a re-analysis of the deposited data

Results flagged for a closer look

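Within groups of 4 libraries, 4 values stood far from the other 3 by Dixon's test, of 50 groups tested. Chance flags about 1 in 20 groups, so a number of this kind gives no pattern. Selenbp2 in GABA was lowest in Wt M2, at 0.145 CPM, with the other Wt libraries at 0.461 to 0.517. Dclk2 in Micro was highest among Wt in Wt M1, at 67.5 CPM against 52.3 to 54.4 in the others, and highest among Ifnar1-/- in Ifnar1-/- F2, at 29.9 CPM against 17.2 to 18.3. Scnm1 in Oligo was highest among Ifnar1-/- in Ifnar1-/- F2, at 27.7 CPM against 16.6 to 17.8. None of these values closed the gap between the genotypes.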

How the results depend on the processing

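The number of members called by genotype changed with the tool and the model. It also changed in either sex alone, which leaves 2 mice per genotype. Over all nuclei 1 member was called in edgeR, 5 in DESeq2 (Prss48, Rit1, Syt11, Selenbp2 and Scnm1), 2 with sex as a covariate (Selenbp2 and Scnm1), and 0 in females only or males only. In Glut the count of 1 became 4 in DESeq2, 2 with sex as a covariate and 0 in either sex alone, and in GABA 3 in DESeq2 and 0 in either sex alone. In Oligo the count of 0 became 1 (Prss48) in DESeq2, without the filter on low counts, with sex as a covariate, with the replicate block and in males only. In Micro 0 became 1 (Dclk2) in DESeq2, without the filter, with the covariate and with the replicate block, and in oligodendrocyte precursors 0 became 1 (Prss48) in DESeq2 and without the filter. The replicate block changed no other call of a member by genotype. Leaving out each library gave 0 to 1 members by genotype over all nuclei and in Glut, GABA, Oligo and Micro. By sex it gave 4 (without Wt M2) to 13 (without Ifnar1-/- M2) over all nuclei, 5 to 10 (without Ifnar1-/- M2) in Glut, 2 (without Wt M2 or Ifnar1-/- F1) to 5 in GABA, 1 (without Wt M1) to 6 in Oligo and 0 to 1 in Micro. The shares over all genes in these runs are not given, so these counts show only how far the calls moved. Without the filter, sex called 7 members in GABA and 2 in Micro, and the interaction called Prss48, as 1 member, in GABA and in Oligo. DESeq2 called 3 by sex in Oligo and 0 in Micro, and RLE factors 0 in Micro. Shares over all genes are also not given for these fits, the replicate block or either sex alone, so nothing is read from the counts. The cause of these changes was not tested.

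Over all genes, DESeq2 called 43, 43, 17 and 15 by genotype in all nuclei, Glut, GABA and Oligo, against 10, 8, 4 and 8 in edgeR, and sex as a covariate 22, 25, 10 and 14. Of 188 fold changes of members, 56 were over 0.25 in size, and 7 changes of sign under an alternative concerned these. Among the 25 pairs of gene and class named by rule, Hapln2 in GABA (0.02 without Wt M1) and Npr1 in Oligo (0.04 in males only) changed sign. Depth limited Selenbp2, Npr1, Nes and the Micro values, which rest on few UMIs per library.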
